A study of Homo sapiens with 18 samples.

Results

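The comparison concerned HEK293T cells carrying an inducible MLL-AF4 construct (MLL-AF4 cells), sampled on day 28 and on day 3. It held 6 of the 18 labelled ATAC-seq libraries, 3 a day, chosen by their labels alone. Expression of the fusion was induced with doxycycline at 1 µg/ml for 48 h in the cells of both days. Per the study's methods, induction ended at day 3, the cells were then grown for the 25 days between the samples without the inducer, and the construct was a Sleeping Beauty transposon vector with a cDNA that joins the 5′ part of MLL to the 3′ part of AF4. Whether the inducible construct was stably integrated or lost over this time is not given in the sources used here. HEK293T is an adherent human embryonic kidney line and not a blood cell, which limits it as a model of leukaemia. Cells that carried AF4-MLL under the inducible promoter (AF4-MLL cells) and cells in which MLL-AF4 was constitutive and AF4-MLL was inducible (co-expression cells), sampled on the same days under the same induction with 3 libraries a group, were used only to see where the MLL-AF4 cells differed. No uninduced cells were analysed here, so the end of induction and the time in culture cannot be told apart.

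The translocation t(4;11) fuses MLL (KMT2A), a methyltransferase of histone H3 lysine 4 that keeps HOX genes active, with AF4 (AFF1), a scaffold of the super elongation complex that releases paused RNA polymerase II. The MLL-AF4 fusion protein brings this elongation machinery to MLL-bound promoters. In ATAC-seq a transposase inserts adapters into open DNA, so a count per gene reads accessibility and not how much RNA the gene made. Whether reads were counted over exons or over whole gene bodies is not given in the sources used here, so counts are compared between days and not between genes.

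The 3 libraries of day 3 held from 648466 to 715327 counts and those of day 28 from 1543372 to 2620509. Mitochondrial genes and their nuclear copies took 45.9% to 49.9% of these counts on day 3 and 70.0% to 71.7% on day 28, which left 325177 to 369255 and 462271 to 740692 counts on nuclear genes. The median over tested nuclear genes was 18.8 counts. As a check of the label, 11 of 12 markers of HEK293T cells passed the filter on low counts, and 5 of 10 markers of blood cells did. Summed over each list, the HEK293T markers held 255 to 288 counts on day 3 and 327 to 541 on day 28, and the blood markers 51 to 66 and 84 to 126, while HBB had a mean of 0.50 counts and LYZ of 2.17. The 3 day 3 libraries stood apart from the other 15 of the series in how their counts were spread over the genome, as described with the chromosomes. All 3 shared this property, so no value could be had without them.

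Of 53991 nuclear genes in the table, 17601 were tested and 451 differed between the days at an adjusted p-value under 0.05 in edgeR's quasi-likelihood test (2.56% of genes tested), 173 higher (0.983%) and 278 lower (1.58%) on day 28. Such genes are referred to as called. In 441 of the 451 all 3 libraries of one day lay above all 3 of the other, which held for 20.2% of all nuclear genes tested. Called changes were small, with a median log2 change of 0.97 among higher and −0.75 among lower genes, and 82 and 38 of them passed 1 in size. The lower genes were mostly genes with many counts: 183 of the 278 were among the quintile of genes with the highest mean counts, beside 63 of the 173 higher genes. DESeq2 called 94 genes, 23 higher and 71 lower, all of them among the 451. Leaving out 1 of the 6 libraries left 159 to 275 calls, the fewest without replicate 1 of day 3. Scaling by library size alone moved the median of all nuclear genes to −0.88 and the split to 6 higher and 11400 lower, so each direction given here is relative to the median gene.

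**Figure D1:**
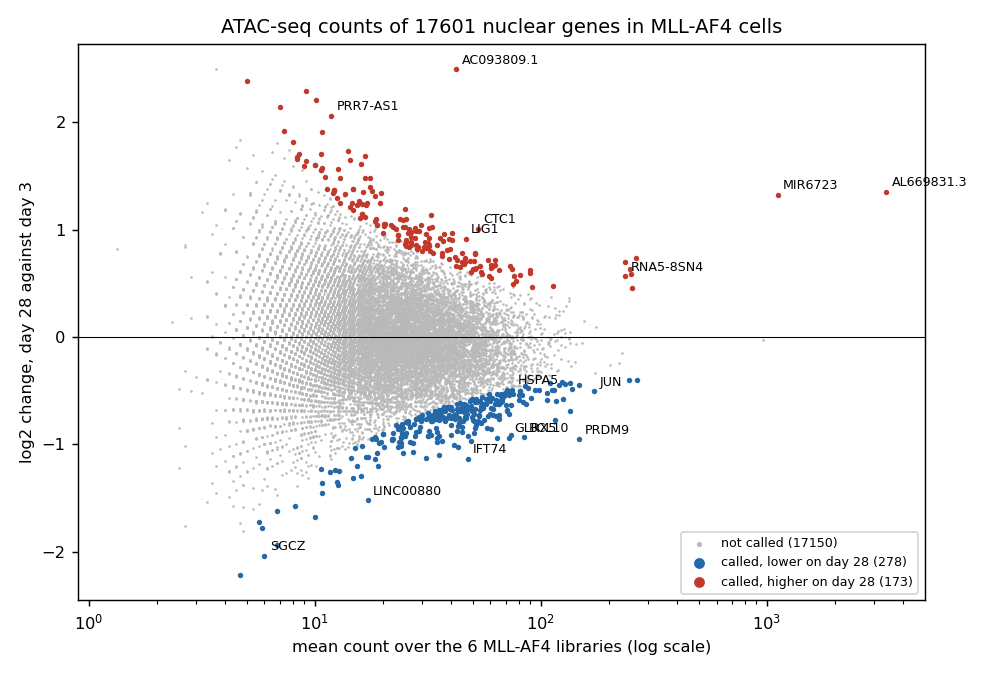
Log2 change from day 3 to day 28 in MLL-AF4 cells (vertical axis) against the mean count over the 6 libraries (horizontal axis, log scale), 1 point for each of 17601 nuclear genes. The 278 lower genes (blue) form a dense edge at high counts, while the 173 higher genes (red) reach down to lower counts, and MIR6723 and AL669831.3 stand apart at the right.

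Promoter sequences of 4 called genes are shown here because the results below return to them. Each is 300 bases from RefSeq (GRCh38.p14), from 250 bases before to 50 after the annotated start, 5′ to 3′ on the strand of the gene. Capitals mark matches on either strand to the GC box word GGGCGG, to CCAAT and, in HSPA5, to the ER stress element, which spans CCAAT, 9 further bases and CCACG and so contains a CCAAT word. GLRX5 (chr14:95534800-95535099, plus strand) and BCL10 (chr1:85276583-85276882, minus strand) are among the clearest lower genes, LIG1 (chr19:48170295-48170594, minus strand) is among the clearest higher genes, and HSPA5 (chr9:125241294-125241593, minus strand) is the reference gene of the ER stress response. The GLRX5 promoter held 5 CCAAT words, BCL10 and LIG1 held 4 GC boxes each and no CCAAT, and HSPA5 held 5 CCAAT words, 2 GC boxes and 1 ER stress element.
GLRX5: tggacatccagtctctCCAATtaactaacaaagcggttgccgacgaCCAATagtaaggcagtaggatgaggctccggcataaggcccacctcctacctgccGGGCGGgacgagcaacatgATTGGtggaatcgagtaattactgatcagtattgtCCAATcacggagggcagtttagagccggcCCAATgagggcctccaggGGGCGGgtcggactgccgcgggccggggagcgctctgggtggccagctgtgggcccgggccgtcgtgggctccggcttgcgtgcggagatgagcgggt
BCL10: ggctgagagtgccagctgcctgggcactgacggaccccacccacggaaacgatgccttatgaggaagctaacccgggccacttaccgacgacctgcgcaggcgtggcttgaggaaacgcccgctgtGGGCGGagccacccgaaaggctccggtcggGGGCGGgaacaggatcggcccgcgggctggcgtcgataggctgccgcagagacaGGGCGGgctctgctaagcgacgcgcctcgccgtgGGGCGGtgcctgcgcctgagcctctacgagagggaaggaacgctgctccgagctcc
LIG1: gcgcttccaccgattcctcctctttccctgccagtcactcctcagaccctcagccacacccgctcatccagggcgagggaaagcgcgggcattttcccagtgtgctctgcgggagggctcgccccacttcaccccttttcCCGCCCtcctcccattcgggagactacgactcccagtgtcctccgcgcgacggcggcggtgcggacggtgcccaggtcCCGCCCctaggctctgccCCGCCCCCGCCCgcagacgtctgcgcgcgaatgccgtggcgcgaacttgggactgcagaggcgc
HSPA5: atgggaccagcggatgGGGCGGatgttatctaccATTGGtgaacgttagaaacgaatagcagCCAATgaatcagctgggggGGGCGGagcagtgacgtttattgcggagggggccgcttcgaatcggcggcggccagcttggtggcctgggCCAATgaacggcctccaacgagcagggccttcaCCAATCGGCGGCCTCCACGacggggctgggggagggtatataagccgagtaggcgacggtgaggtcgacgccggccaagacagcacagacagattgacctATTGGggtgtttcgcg

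The lower gene with the smallest adjusted p-value was PRDM9 (chr5:23507155-23528093), the meiotic H3K4 methyltransferase that places recombination hotspots. Its scaled counts (CPM, counts per 1000000 of the TMM-scaled library) were 201, 202 and 168 on day 3 and 97.2, 92.6 and 107 on day 28. Each day 28 library thus lay well below each day 3 library, with a log2 change of −0.95 ± 0.12 (SE, n = 3 a day, edgeR adjusted p = 1.9e-11). PRDM9 has a near-identical copy, PRDM7, with which reads may be split, and its value is uncertain for that reason. BCL10 (chr1:85265776-85276632), the adaptor that links antigen receptors to NF-kB, went from 117, 108 and 95.9 CPM to 54.4, 61.9 and 49.2 CPM, without overlap (log2 change −0.93 ± 0.14, edgeR adjusted p = 1.3e-07). GLRX5 (chr14:95535050-95544714), a mitochondrial glutaredoxin of iron-sulfur cluster assembly, had 85.9, 101 and 91.3 CPM on day 3 and 37.1, 54.1 and 51.9 CPM on day 28 (−0.94 ± 0.15, edgeR adjusted p = 8.9e-07).

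IFT74, a subunit of the intraflagellar transport complex of cilia, fell by 1.13 on the log2 scale, from 64.7 ± 11.5 to 28.7 ± 4.79 CPM (mean ± SD, n = 3 a day). The transcription factors KLF5 and ZEB2 fell from 141 ± 21.4 to 82.0 ± 1.24 CPM and from 158 ± 7.04 to 97.3 ± 6.94 CPM. VTA1, which acts in the sorting of multivesicular bodies, fell by 1.10 on the log2 scale, from 48.0 ± 3.60 to 21.8 ± 3.17 CPM. DCUN1D4, a co-factor of cullin neddylation, was more scattered on day 3, with 61.4, 72.3 and 37.0 CPM, against 28.8, 24.5 and 31.3 CPM on day 28. NUDCD1, FAM172A and the long noncoding RNAs LINC00880 and GLIDR completed the 12 lower genes with the smallest adjusted p-values, with log2 changes of −0.96, −0.92, −1.52 and −0.84. All 12 stayed called in DESeq2, in each fit that left out 1 library and after an offset for gene density described below. Without a RefSeq symbol, AC106818.1, AC099548.2, AC005540.1 and AC026202.3 were the clearest lower genes, with log2 changes from −1.01 to −0.85.

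**Figure D2:**
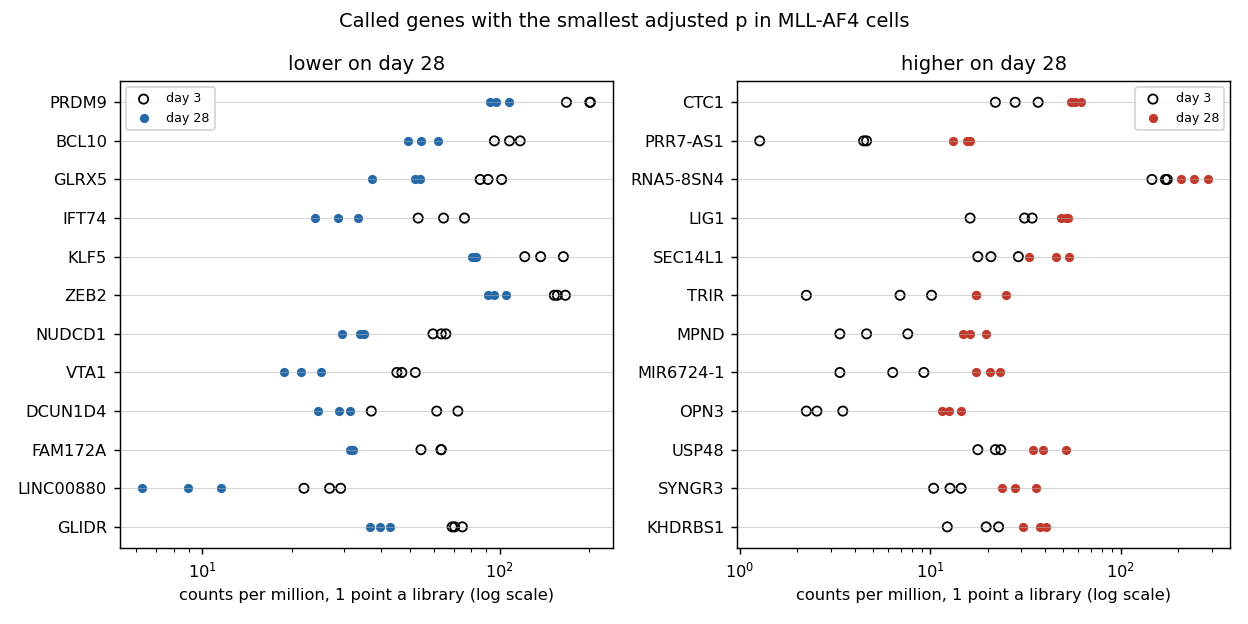
CPM in each of the 3 day 3 libraries (open circles) and 3 day 28 libraries (filled circles) of MLL-AF4 cells, on a log scale, for the 12 lower (left) and 12 higher (right) genes with the smallest adjusted p-values among genes in RefSeq. The days do not overlap in any of these genes, by the rule that chose them, and higher genes such as PRR7-AS1, TRIR and MPND had few counts on day 3.

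Among the higher genes, CTC1 (chr17:8224815-8248056), a subunit of the complex that maintains telomere ends, had the smallest adjusted p-value of those in RefSeq. It had 36.8, 27.9 and 21.96 CPM on day 3 and 57.7, 61.9 and 54.6 CPM on day 28 (log2 change 1.01 ± 0.19, edgeR adjusted p = 7.3e-05). LIG1 (chr19:48115445-48170344), the ligase that joins Okazaki fragments, went from 31.2, 34.3 and 16.2 CPM to 52.7, 51.9 and 48.3 CPM, with day 28 above day 3 in each library (0.92 ± 0.20, edgeR adjusted p = 0.0019). Without replicate 3 of day 3 the LIG1 change was 0.64 and no longer called (edgeR adjusted p = 0.12). SEC14L1 and USP48, a ubiquitin protease, rose by 0.97 and 0.96 on the log2 scale. KHDRBS1, an RNA-binding protein of splicing, rose from 18.3 ± 5.42 to 36.3 ± 5.24 CPM and SYNGR3, a synaptic vesicle protein, from 12.5 ± 2.06 to 29.2 ± 6.06 CPM. TRIR, MPND, OPN3 and the antisense RNA PRR7-AS1 rose from means of 6.44, 5.19, 2.75 and 3.45 CPM, where few reads carry the value. Among the 12 higher genes, DESeq2 did not call MPND, OPN3 and MIR6724-1, and 6 stayed called in each fit without 1 library. The assay carries no strand, so overlapping genes can share reads, and CTC1 overlapped 4 annotated genes, SEC14L1 6, IFT74 3 and FAM172A 5.

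AC093809.1, MIR6723 and AL669831.3, which have no RefSeq symbol, passed the test by a wider margin than any of these genes. AL669831.3 had 1544 CPM on day 3 and 3950 ± 173 CPM (SD, n = 3) on day 28, and MIR6723 519 ± 55.1 and 1299 ± 81.4 CPM. Their log2 changes were 1.36 and 1.33, that of AC093809.1 was 2.50, and the median of 36 genes of the mitochondrial genome was 1.45 in the same fit. The changes of these 3 genes were as high in AF4-MLL cells (1.77, 1.80 and 3.15 for AL669831.3, MIR6723 and AC093809.1) and in co-expression cells (1.73, 1.74 and 2.64). MIR6723 is known to lie in a nuclear insert of mitochondrial DNA, and the share of mitochondrial reads in these counts was not tested. Without the 3 genes 170 nuclear genes were higher.

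Copies of the ribosomal repeat on the short arms of the acrocentric chromosomes were higher as a group. Of 17 such entries tested, 10 were called, all higher, beside 0.983% of all nuclear genes, with a median log2 change of 0.64 against 0.00 over all genes. In all 17 each day 28 library lay above each day 3 library, beside 20.2% of all nuclear genes whose days were separate in either direction. The copies are near-identical, so that reads cannot be assigned to 1 copy and the entries are not separate measurements. RNA5-8SN4, a 5.8S rRNA gene, merges several gene identifiers and is listed at chr22:128877-129032, so its position is uncertain. It had 172, 146 and 176 CPM on day 3 and 288, 209 and 243 CPM on day 28 (0.57 ± 0.12, edgeR adjusted p = 0.00096). The days did not overlap, and without replicate 1 of day 28 the change was 0.44 (edgeR adjusted p = 0.060). RF01518, FP671120.4, FP236383.3 and FP671120.3 rose by 0.74, 0.70, 0.64 and 0.59 on the log2 scale. Scaled by library size alone, RNA5-8SN4 and these 4 entries had negative values, above the median of −0.88 that all nuclear genes then had.

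Of 28 miRNA genes tested, 5 were called, all higher, beside 0.983% of all nuclear genes, although the median over the 28 was −0.35. MIR6724-1, MIR6724-3, MIR6724-4 and MIR3648-2, on chromosome 21, are among the 17 ribosomal repeat entries just described, and the remaining one, MIR4521, lies at chr17:8186945-8187004, in the same region of chromosome 17 as CTC1. MIR6724-1 had 3, 5 and 8 counts on day 3 and 21, 37 and 26 on day 28 (log2 change 1.68 ± 0.39, edgeR adjusted p = 0.0027). MIR4521 had 4, 2 and 2 counts on day 3 and 13, 16 and 14 on day 28 (1.71 ± 0.50, edgeR adjusted p = 0.035). The mature miRNAs encoded at these loci, from RefSeq (GRCh38.p14), are shown with the seed (bases 2 to 8) in capitals, and no seed was shared between them. The counts read the accessibility of the loci, not the mature miRNAs.
hsa-miR-6724-5p: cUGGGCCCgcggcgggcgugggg
hsa-miR-3648: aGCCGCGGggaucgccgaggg
hsa-miR-4521: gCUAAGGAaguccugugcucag

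The direction of change followed the chromosome. The median log2 change of tested genes was 0.28 on chromosome 19, 0.27 on 22, 0.25 on 17, 0.16 on 16 and 0.13 on 20, and −0.19 on chromosome 4, −0.15 on X, −0.13 on 13, −0.12 on 5 and −0.10 on 8. On chromosome 19, 37 of 964 genes were higher and 0 lower, on chromosome 17, 34 of 933 were higher and 2 lower, and on chromosome 22, 11 genes were higher and 0 lower. On chromosome 4, 1 of 587 genes was higher and 27 were lower, and on chromosome 3, 1 of 872 was higher and 24 lower. Together the 5 chromosomes with the highest medians held 101 higher and 4 lower genes among 3401, and the 5 with the lowest medians 6 higher and 69 lower genes among 2603. The chromosome medians spanned 0.48 on the log2 scale in MLL-AF4 cells, 0.16 in AF4-MLL cells and 0.10 in co-expression cells.

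Chromosomes with a high median were mostly dense in genes. The reverse did not always hold, as genes of chromosome 11 had a median of 30 neighbours and a median log2 change of −0.06. Gene density was counted as the number of protein-coding genes within 1 Mb of a gene on either side, with the gene itself included where it was protein coding. In the sparsest quintile of 15460 tested genes, with 0 to 11 such neighbours, 9 genes were higher and 122 lower, and the median log2 change was −0.15. In the densest quintile, with 47 to 113, 69 genes were higher and 7 lower, and the median was 0.16. The quintiles between had medians of −0.06, 0.02 and 0.08, so the value rose at each step. The difference between the densest and the sparsest quintile was 0.30 in MLL-AF4 cells, −0.11 in AF4-MLL cells and −0.07 in co-expression cells. Across the 15460 genes, which are not independent, Spearman's correlation of log2 change with density was 0.27 in MLL-AF4 cells, −0.14 in AF4-MLL cells and −0.07 in co-expression cells.

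The pattern could be placed in single libraries. For each library the median deviation of genes from their mean over all 18 libraries was taken in the densest quintile minus the sparsest quintile. The MLL-AF4 day 3 libraries had −0.22, −0.22 and −0.19, and the MLL-AF4 day 28 libraries 0.06, 0.09 and 0.10. The 15 libraries outside the day 3 group of MLL-AF4 cells lay between −0.06 and 0.12. By this measure the MLL-AF4 cells of day 3 lay outside the range of the other groups, with relatively more counts in gene-sparse regions. A second measure set the 5 chromosomes with the highest medians against the 5 with the lowest, chosen from this same contrast. There the MLL-AF4 libraries had −0.21, −0.22 and −0.20 on day 3 and 0.11, 0.14 and 0.13 on day 28. AF4-MLL and co-expression libraries lay between −0.02 and 0.08, so by chromosome both days of MLL-AF4 cells lay outside their range. Which library preparation each group had was not given in the sources used here. The construct and a preparation shared within a group of 3 libraries therefore cannot be told apart.

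Raw shares of nuclear counts showed it without any fit. The sparsest quintile took 17.6%, 17.7% and 17.5% of nuclear counts on day 3 and 15.3% in each day 28 library, and the densest quintile 16.01%, 15.9% and 16.1% on day 3 and 17.2%, 17.5% and 17.4% on day 28. Chromosome 19 took 4.50% ± 0.05 (SD, n = 3) on day 3 and 5.42% ± 0.07 on day 28, chromosome 17 5.30% ± 0.02 and 6.19% ± 0.06, and chromosome 4 3.61% ± 0.02 and 3.15% ± 0.04. Over all 41 classes compared (23 chromosomes, 3 gene types and 5 quintiles each of density, length and promoter GC), the days did not overlap in 38 (exact two-sided permutation test, p = 0.1 each, 0.108 after Benjamini-Hochberg adjustment over the 41), and 0.1 is the smallest p that 3 libraries against 3 allow. The exceptions were chromosomes 1, 14 and 15. The 38 are not separate results, because shares are parts of 1 total and a rise elsewhere lowers a class. All 5 length quintiles were among the 38, and 0 of them took a higher share on day 28. Protein-coding genes as a whole went from 79.3% on day 3 to 78.2% on day 28. Of the 20 chromosomes without overlap, 6 took a higher share on day 28, namely 16, 17, 19, 20, 21 and 22.

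Along the chromosomes the tested genes were cut into 298 runs of 50 neighbours. The median log2 change passed 0.3 in 21 runs and −0.3 in 7 runs in MLL-AF4 cells, and in 0 runs in either direction in both other settings. The highest run reached from APBA3 to RFX2 (chr19:3750772-6110500, median 0.51) and the next from TCF3 to TJP3 (chr19:1609292-3750813, 0.50, 8 of its genes higher). A run on chromosome 17 from ZNHIT3 to CSF3 (chr17:36486681-40017813) had a median of 0.46 without any called gene, so that here a whole region lay higher by amounts too small to be called gene by gene. The lowest run went from ITGAV to SPATS2L (chr2:186590056-200482264, median −0.37, 7 genes lower), followed by DDIAS to CNTN5 on chromosome 11 (chr11:82901736-100358885, −0.36, 4 genes lower).

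When gene density was removed with an offset for each library, 211 of 15460 genes were called, 67 higher and 144 lower, and 177 of the 383 calls with a known position were kept. PRDM9, BCL10, GLRX5 and LIG1 kept log2 changes of −0.77, −0.93, −0.95 and 0.72 and stayed called, as did all 24 genes with a RefSeq symbol named above as clearest. Gene length showed no such order in MLL-AF4 cells, with medians from −0.02 to 0.04 over quintiles of length. Promoter GC did in a weaker form, with medians of −0.03, −0.01, −0.01, 0.02 and 0.09 from the lowest to the highest quintile of 11385 protein-coding genes with a RefSeq promoter (81.5% of those tested).

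Genes of the fusion partners and of their complexes did not stand out. KMT2A had 40.2, 39.3 and 27.7 CPM on day 3 and 47.0, 43.5 and 45.6 CPM on day 28 (log2 change 0.34 ± 0.19, edgeR adjusted p = 0.39), so that day 28 lay above day 3 without passing the test. AFF1 had 55.8, 71.0 and 59.0 CPM and 40.4, 53 and 58.2 CPM (−0.28 ± 0.16, edgeR adjusted p = 0.40), with overlapping days. Endogenous and construct reads cannot be told apart in these counts. Of 20 genes of the MLL complex and its COMPASS relatives, 1 was called, NCOA6, a subunit of the KMT2C and KMT2D complexes (log2 change 1.38, edgeR adjusted p = 0.018), and the median of the list was 0.18, beside 0.00 over all genes. NCOA6 had only 5, 5 and 7 counts on day 3. DESeq2 did not call it, and it stayed called in 2 of 6 fits without 1 library. Of 22 genes of the super elongation complex, P-TEFb and DOT1L, only ELL2, an elongation factor, was called (−0.74, edgeR adjusted p = 0.0033). The other members had log2 changes from −0.37 (EAF2) to 0.82 (CDK9), 11 of the 22 lay above 0, and the list median was −0.00. Of 23 reported targets of MLL fusions tested, 1 was called, the zinc finger gene ZNF521 (−0.68, edgeR adjusted p = 0.042, lost in each fit without 1 library), while MEIS1, HOXA9 and HOXA10 had log2 changes of −0.02, 0.16 and 0.13.

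Within the HOX genes, the patterning factors that MLL maintains, 3 of 35 tested were higher, beside 0.983% of all nuclear genes, and all 3 lie in the HOXB cluster on chromosome 17. Of all tested genes on that chromosome 3.64% were higher, with a median log2 change of 0.25. HOXB3 overlapped 5 annotated genes and HOXB6 1, so reads can be shared between neighbours. HOXB9 went from 21.2, 21.6 and 21.96 CPM to 37.1, 40.2 and 43.9 CPM (0.90 ± 0.22, edgeR adjusted p = 0.0064), HOXB6 from 32.7 ± 3.58 to 53.2 ± 3.28 CPM and HOXB3 from 36.7 ± 11.9 to 56.1 ± 1.56 CPM. The uncalled HOXB7, HOXB5, HOXB13, HOXB8, HOXB2 and HOXB4 had log2 changes of 0.71, 0.71, 0.58, 0.49, 0.46 and 0.27. Scaled by library size alone, HOXB3 and HOXB6 turned negative, above the median of all genes. DESeq2 called none of the 3, and after the density offset only HOXB9 stayed called.

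Chromatin remodellers of the SWI/SNF family had the highest median of the 30 lists, 0.29 over 26 genes. SMARCA4, the BRG1 ATPase on chromosome 19, rose from 20.1, 17.8 and 24.3 CPM to 35.4, 34.6 and 44.8 CPM (0.86 ± 0.23, edgeR adjusted p = 0.017), and SMARCB1, a core subunit on chromosome 22, from 34.5 ± 4.50 to 54.7 ± 4.91 CPM. ACTL6A, the actin-like subunit on chromosome 3, fell from 28.1 ± 3.70 to 14.5 ± 1.13 CPM (−0.95 ± 0.27, edgeR adjusted p = 0.024). None of the 3 was called by DESeq2 or after the density offset, and with library size alone SMARCA4 and SMARCB1 turned negative, above the median of all genes. Among 29 Polycomb genes 1 was called, PHF1 (0.84, edgeR adjusted p = 0.050), and its call was lost in 9 of 11 other fits.

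Chaperones of the endoplasmic reticulum and the unfolded protein response had 3 of 25 members called, all lower, beside 1.58% of all nuclear genes, and a list median of −0.13. HSPA5 (BiP), the master chaperone, had 83.7, 96.4 and 65.9 CPM on day 3 and 56.9, 60.8 and 55.5 CPM on day 28 (−0.49 ± 0.15, edgeR adjusted p = 0.046), a call lost in 6 of 12 other fits and in 5 of 6 fits without 1 library. DNAJB11, a BiP co-chaperone, fell from 64.8 ± 2.41 to 40.0 ± 5.87 CPM and PDIA4, a disulfide isomerase, from 61.0 ± 3.82 to 41.7 ± 8.61 CPM. DESeq2 called none of these 3 genes, and DNAJB11 and PDIA4 stayed called in 3 and 1 of the 6 fits without 1 library. CRELD2, a further ER stress gene, had 46.2 ± 2.54 CPM on day 3 and 42.1 ± 3.86 on day 28 (−0.12 ± 0.18, edgeR adjusted p = 0.82), with overlapping days. HSPA5 changed by −1.03 in AF4-MLL cells and by −1.08 in co-expression cells, where it was called as well. Of 22 targets of ATF4 tested, 0 were called.

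Over all 30 lists, 31 of 832 different members tested were called (3.73%, beside 2.56% of all genes), 9 higher and 22 lower, and 9 lists had no member called. Those 9 were the targets of ATF4, G1 cyclins and CDKs, nuclear oxidative phosphorylation (54 members), glycolysis and hypoxia, Notch, TGF-beta and BMP, adhesion, kidney lineage and blood lineage genes. DESeq2 called 10 of the 31, the fit with the density offset 17, and 4 stayed called in each fit without 1 library. Among factors of mitochondrial DNA, 2 of 21 were called, both lower, beside 1.58% of all nuclear genes. TFAM, which packages and transcribes mitochondrial DNA, went from 91.5, 67.2 and 59.0 CPM to 44.5, 44.1 and 43.9 CPM (−0.72 ± 0.16, edgeR adjusted p = 0.0019), and GABPA, an ETS factor of nuclear respiratory genes, from 72.0 ± 4.29 to 47.1 ± 8.86 CPM. GABPA was not called by DESeq2 or after the density offset, and stayed called in 3 of 6 fits without 1 library. Without replicate 1 of day 3 TFAM changed by −0.52 and was not called (edgeR adjusted p = 0.18). In AF4-MLL and co-expression cells TFAM changed by 0.05 and −0.19 without being called. The mitochondrial share of counts was higher on day 28 in all 3 settings, and a link between TFAM and this share was not tested.

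Single members were called in the signalling and growth lists. A single call made up 2.63% to 4.55% of a list here, near the 2.56% called over all nuclear genes. JUN, the AP-1 subunit, was 1 of 30 immediate early genes and fell from 184, 190 and 192 CPM to 124, 138 and 137 CPM (−0.50 ± 0.12, edgeR adjusted p = 0.0033). BCL10 was the only one of 24 NF-kB genes, GADD45A the only one of 25 p53 targets (−0.42), DKK1, a secreted WNT inhibitor, the only one of 38 WNT genes (−0.55), and CACYBP, a co-chaperone, the only one of 22 targets of HSF1 (−0.58). IDI1 of cholesterol synthesis, PSMD14 of the proteasome lid and the mitotic checkpoint kinase TTK were lower by −0.60, −0.89 and −0.91 in log2 change. Of 35 replication genes, LIG1 was higher and RPA3, the small subunit of replication protein A, lower (−0.63). Of 78 cytosolic ribosomal protein genes, RPS19 was higher (0.71) and RPL41 and RPL27A were lower (−0.87 and −0.44), with a list median of −0.01. RSAD2, an antiviral interferon gene, fell from 16.1 ± 2.94 to 6.03 ± 2.57 CPM, and SGCZ, a sarcoglycan gene of the long neuronal list, had 10.04, 13.95 and 6.94 CPM on day 3 and 0, 3.35 and 3.58 CPM on day 28. DESeq2 did not call GADD45A, DKK1, IDI1, RPA3, RPS19, RPL27A, RSAD2 and SGCZ. After the density offset JUN (edgeR adjusted p = 0.082), GADD45A, DKK1, RPS19 and RSAD2 were not called. GADD45A stayed called in 0 of 6 fits without 1 library, RPL27A in 1, and DKK1, RPS19 and RSAD2 in 2. MIF, followed in the study, had 49.7 ± 7.50 and 45.9 ± 3.37 CPM (−0.10 ± 0.18, edgeR adjusted p = 0.85).

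Promoter composition was described without a test. Among protein-coding genes with a RefSeq promoter, the 116 higher genes had a median GC content of 68.5% and 32 CpG, the 171 lower genes 65.0% and 26 CpG, and all 11385 tested 65.3% and 26 CpG. The same higher and lower genes also had unequal gene density, with medians of 44.5 and 10 neighbours, and unequal mean counts, with medians of 26.8 and 45.2, and the part of these in the promoter values was not tested. A CCAAT word on either strand was in 46.2% of the promoters of lower genes and 28.4% of those of higher genes, beside 36.2% of those tested and 35.7% of all 27305 RefSeq promoters. The TATA word TATAAA was in 9.36% of lower, 4.31% of higher and 5.95% of tested promoters (11.95% of all), and the E-box CACGTG in 7.02%, 13.8% and 9.76% (7.43% of all).

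The GC box was in 71.9% of lower, 66.4% of higher and 69.4% of tested promoters, beside 44.6% of all promoters. The CRE word TGACGTCA was in 4.09% of lower and 3.45% of higher promoters (tested 3.09%, all 1.98%), the AP-1 word TGACTCA in 2.34% and 0.862% (2.90%, 4.92%), the ETS word CCGGAAG in 16.96% and 12.1% (17.5%, 10.7%) and the NRF1 word GCGCATGC in 4.09% and 6.90% (5.15%, 3.27%). The ER stress element was in 14 tested promoters and in 1 of the 171 lower ones, that of HSPA5 printed above. The median log2 change was −0.01 with a CCAAT word and 0.02 without. A word is a match of letters and not a bound site, and these shares were not tested.

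Tested directly, the change over time in MLL-AF4 cells differed from that in AF4-MLL cells for 55 of 17601 genes (0.312%) and from that in co-expression cells for 40 (0.227%), and 15 genes were in both. Of the 55, 12 were higher and 28 lower in MLL-AF4 cells, and of the 40, 16 and 14. Both tests share the 6 MLL-AF4 libraries. In AF4-MLL cells 22 nuclear genes were higher (0.125%) and 27 lower (0.153%), and 3 of the 173 higher and 4 of the 278 lower genes of MLL-AF4 cells were among them. In co-expression cells 20 were higher (0.114%) and 30 lower (0.17%), and 4 and 4 were shared. The shared higher genes were AC093809.1, MIR6723 and AL669831.3, set beside the mitochondrial genome above, in both settings. OPN3, with few counts, was the remaining one in co-expression cells. The change had the same sign as in MLL-AF4 cells for 117 of the 173 and 187 of the 278 genes in AF4-MLL cells, and for 103 and 202 in co-expression cells. The median log2 change of the higher genes was 0.09 and 0.08 there, and that of the lower genes −0.11 and −0.11.

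PRDM9 changed by −0.95 in MLL-AF4 cells and −0.03 in AF4-MLL cells, and the difference of 0.92 ± 0.16 passed the test (edgeR adjusted p = 0.00025). Against the change of −0.32 in co-expression cells it did not (edgeR adjusted p = 0.060). GLRX5, ZEB2 and NUDCD1, lower in MLL-AF4 cells, changed by −0.06, −0.03 and 0.07 in AF4-MLL cells and by −0.01, −0.01 and 0.09 in co-expression cells, and differed from both. The difference was not detectable for BCL10, which had changes of −0.26 and −0.27 in the other cells (edgeR adjusted p = 0.099 and 0.11). The smallest adjusted p-values belonged to the ribosomal repeat copies. FP671120.4 changed by 0.70 in MLL-AF4 cells, −0.44 in AF4-MLL cells and −0.45 in co-expression cells. SETMAR, a fusion of a methyltransferase with a transposase, changed by −0.71 in MLL-AF4 cells without passing the test and by 1.13 in co-expression cells (difference 1.84, edgeR adjusted p = 0.0028). After the density offset 7 and 2 genes differed, and RNA5-8SN4 was in both, though its position and so its density value are uncertain. The differences of PRDM9, GLRX5, ZEB2 and NUDCD1 were no longer called then, with edgeR adjusted p-values to AF4-MLL cells of 0.11, 0.080, 0.54 and 0.15, while that of SETMAR was (edgeR adjusted p = 0.044). DESeq2 found 2 and 1, and the 1 against co-expression cells had a negative difference, so it was not SETMAR.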

How the data were processed

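ATAC-seq was done on 18 libraries of HEK293T cells in 6 groups of 3 biological replicates. The authors deposited 1 table of raw read counts per gene, which is the unit used throughout. The submitters' processing notes name bcl2fastq, Bowtie2, HTSeq and GRCh38; versions and counting settings are not given in the sources used here. Genes of the mitochondrial genome and their nuclear copies were kept in the fit and left out of the results. The MLL-AF4 libraries held from 648466 to 2620509 counts, so that changes of genes with few counts carry large errors.

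Counts were tested with the quasi-likelihood test of edgeR 4.0.16 (R 4.3.3) after TMM scaling and a filter (minimum count 10, minimum total 15), in 1 fit of 18 libraries and 6 groups, with Benjamini-Hochberg adjustment over the 17660 genes tested and a threshold of 0.05. The biological coefficient of variation was 7.48%. CPM were computed on the TMM-scaled library, and SE is the size of the log2 change divided by the square root of F. Changes over time were compared between cells with interaction terms. The fit was tested on simulated data. Classes, positions, promoters and motifs came from RefSeq tables (GRCh38.p14), matched by current or older gene symbol for 15460 of 17601 nuclear genes tested. DESeq2 1.42.0 and the other settings are described in the closing section.

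Named genes were the 12 per direction with the smallest adjusted p-values among called nuclear genes that averaged 10 counts or more, with separate days and a RefSeq symbol, 4 per direction without one, the called members of 30 gene lists, the followed genes KMT2A, AFF1, MIF, HSPA5, CRELD2, PRDM9 and BCL10, and 3 per direction for each interaction. Uncalled genes given beside them, and the 3 genes set beside the mitochondrial genome, were chosen after their values were seen. The comparison, gene lists and rules were chosen with earlier results of these data known. Gene density, the runs of 50 genes and the density offset were added after the chromosome pattern was seen. There was 1 fit per table and no uninduced cells were included. The p-values set each difference against the spread between replicates, which was estimated over all 18 libraries with information shared across genes.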

Additional observations from a re-analysis of the deposited data

Results flagged for a closer look

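The change from day 3 to day 28 differed from that in MLL-AF4 cells for 55 nuclear genes in AF4-MLL cells and for 40 in co-expression cells (edgeR interaction terms, adjusted p under 0.05). Values here are log2 differences, the change in the other cells minus that in MLL-AF4 cells. Both sets use the same 6 MLL-AF4 libraries. After the gene density offset, 1 of the 10 genes below with a listed position stayed called against AF4-MLL cells (RNA5-8SN4) and 2 of 9 against co-expression cells (RNA5-8SN4 and SETMAR), so PRDM9, GLRX5, KLF5, ZEB2, NUDCD1, VTA1, CACYBP, LIG1, HOXB6, PSMD14, PRR7-AS1, MIR6724-1 and RPS19 were called only without it. The listed position of RNA5-8SN4, and so its density value, is uncertain.

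Among genes lower in MLL-AF4 cells, the difference to AF4-MLL cells was 0.92 for PRDM9, 0.88 for GLRX5, 0.72 for KLF5, 0.66 for ZEB2, 1.04 for NUDCD1, 1.16 for VTA1 and 0.67 for CACYBP. Of the entries without a RefSeq symbol, AC106818.1 had 0.92, AC099548.2 1.08 and AC026202.3 1.14. Among higher genes it was −1.05 for LIG1 and −1.04 for HOXB6. The ribosomal repeat copies RNA5-8SN4, RF01518, FP671120.4, FP671120.3 and FP236383.3 had −0.85, −0.78, −1.14, −1.10 and −0.96.

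The difference to co-expression cells was 0.92 for GLRX5, 0.68 for ZEB2, 1.05 for NUDCD1, 1.03 for AC106818.1, 1.12 for PSMD14 and 1.84 for SETMAR. It was −2.36 for PRR7-AS1, −2.44 for MIR6724-1 and −1.10 for RPS19, the first pair of which had few counts. RNA5-8SN4, RF01518, FP671120.4, FP671120.3 and FP236383.3 had −0.79, −0.78, −1.15, −0.88 and −1.06.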

How the results depend on the processing

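The 451 calls between the days numbered 94 with DESeq2, 211 with the gene density offset (15460 genes tested, 177 of 383 testable calls kept), 285 with the promoter GC offset (12179 genes tested, 264 of 305 kept), 190 without a filter (108 higher, 82 lower), 228 with nuclear counts thinned to 1 depth and 11406 with library size as the only scaling, and ranged from 159 to 275 when 1 library was left out. The thresholds of the study (unadjusted p, log2 change over 1) gave 397 (255 higher, 142 lower), of which 120 were among the 451. RLE scaling, a loess offset, a minimum mean of 30 counts, removal of mitochondrial genes and a fit of the 6 libraries alone gave 375 to 454. Replicate numbers did not pair the days (correlations from −0.04 to 0.04), and with them as a block 436 genes were called, and 48 and 31 in the interactions.

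Against AF4-MLL cells, 55 differences stood beside 2 with DESeq2, 7 with the density offset (5 of the 42 testable calls kept), 11 with library size only and 26 without a filter, and ranged from 24 to 43 without 1 library. Against co-expression cells, 40 stood beside 1 with DESeq2 and 2 with the density offset (2 of 31 kept), and counts ranged from 9 to 30. The difference between density quintiles, 0.30, was 0.021 with the density offset, by its construction, 0.33 with thinned counts and 0.28 to 0.33 without 1 library.

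With library size only, log2 changes turned negative for RNA5-8SN4 (−0.31), RF01518 (−0.14), FP671120.4 (−0.18), FP671120.3 (−0.28), FP236383.3 (−0.24), KMT2A (−0.54), HOXB3 (−0.27), HOXB6 (−0.17), PHF1 (−0.053), RPS19 (−0.17), SMARCA4 (−0.015) and SMARCB1 (−0.23), beside a median of −0.88 over all genes. Without the 1% of genes with most counts, the share of chromosome 1 changed by 0.126 and that of chromosome 14 by 0.010 percentage points, in place of −0.046 and −0.052. MIF ranged from −0.17 to 0.023 without 1 library. Other causes of these changes were not tested. With a median of 18.8 counts per gene, small changes of most genes were not detectable at this depth.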
